A study of Mus musculus with 27 samples.

Results

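The Ifitm genes encode small membrane proteins, the interferon-induced transmembrane proteins. The 5 members described here, Ifitm1, Ifitm2, Ifitm3, Ifitm6 and Ifitm10, were taken by their symbols from deposited mRNA tables of 55291 gene rows. Ifitm5 and Ifitm7, the 2 other rows of the family, are mentioned only where they bear on these. The family was chosen by the measured levels of Ifitm1, already known from these libraries as one of the genes highest above control in macrophages. Its members' differences from the macrophage controls are therefore given as a description, with no test.

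IFITM proteins sit in the plasma membrane and in endosomes and lysosomes, where IFITM3 in particular restricts the entry of enveloped viruses by hindering fusion of the viral with the cell membrane. IFITM1 is held mainly at the cell surface, while IFITM2 and IFITM3 carry a sorting signal in their amino-terminal tail that leads them into endosomes. Ifitm1, Ifitm2 and Ifitm3 are classical interferon-stimulated genes, and many cells also express them without interferon. Ifitm6 is known mainly from mouse myeloid cells, and little is known of the role of Ifitm10.

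RNA was sequenced from mouse endothelial cells (EC) and mouse peritoneal macrophages (PMAC), each in libraries labelled control, chylomicron-treated or SRBI-knockdown, with 3 libraries in each of 6 groups. Chylomicrons are lipoprotein particles in which the intestine exports dietary fat, and SR-BI is a lipoprotein receptor encoded by Scarb1. The series title names extracellular vesicles of chylomicron-treated endothelial cells and inflammation of macrophages. The labels give no strain, age, dose or time, and they do not say whether the macrophages labelled chylomicron-treated met chylomicrons or vesicles. Nor do they name the cells that carried the knockdown, or whether these were also given chylomicrons. The extraction protocol names murine cell lines called PL and PLA without tying either to a library. Nothing says that libraries of a group came from separate cultures or animals, so p-values measure the spread between these libraries, which may be technical. The EC SRBI knockdown libraries stood in a table of their own with no control.

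Reads assigned to genes ranged from 40046820 to 46700757 in the EC control and chylomicron libraries and from 30547284 to 55874954 in the PMAC libraries. The EC SRBI knockdown libraries were shallower, at 16758727 to 20715157. Levels of a gene within a table are given as normalized counts, the deposited reads divided by a size factor per library. Across tables they are given as RPM, the reads of each library rescaled to a total of 1000000. Lengths of the transcripts were not used, so levels of different Ifitm genes are not compared. Sums over lists of marker genes likewise do not measure shares of cell types. Scarb1 averaged 117 ± 3.14 RPM (SD, n = 3) in EC SRBI knockdown and 281 ± 26.7 in EC control, and in macrophages 46.6 ± 4.11 in SRBI knockdown, 58.9 ± 1.47 in control and 40.3 ± 2.87 in chylomicron. In PMAC the group labelled SRBI knockdown thus did not have the lowest Scarb1. The macrophage receptor gene Adgre1 averaged 3210 to 3510 RPM in the PMAC groups and at most 0.00714 in the EC groups. The endothelial cadherin gene Cdh5 was at 363 ± 35.1 RPM in EC control and 46.2 ± 3.19 in EC SRBI knockdown. A list of 8 fibroblast and mural cell genes summed to 2733 to 4637 RPM over the EC libraries, where 10 endothelial genes summed to 460 to 1570. Their part in the levels of the Ifitm genes was not tested.

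Ifitm2, Ifitm1, Ifitm3 and Ifitm6 lie in that order within a cluster on mouse chromosome 7, and Ifitm10 lies 1.31 Mb beyond it. On GRCm38, by the RefSeq annotation, Ifitm2 spans 140954837 to 140959686, Ifitm1 140967429 to 140969827, Ifitm3 141009590 to 141010744, Ifitm6 141015812 to 141016892 and Ifitm10 142325835 to 142373779. The cluster from Ifitm5 to Ifitm6 measures 67.9 kb, and 0 annotated genes overlap any of the 5 members. The cluster members are close copies of each other, and the sources do not say how reads that match several of them were counted, so a part of the reads of a member may come from another. The start regions of the 4 cluster members are printed because they stand near each other on the chromosome while their levels differed in direction. Each is the strand of the gene, 5′ to 3′, from 250 bases before a transcript start to 50 bases after it, from RefSeq on GRCm38.p6. The start used for Ifitm1 and that for Ifitm2 lie inside the spans given above, so the outermost start of these genes is not in the window printed. Capitals mark the core of the interferon-stimulated response element, the letters GAAA, NN and GAAA in a row with N any base, through which the transcription factor ISGF3 and interferon regulatory factors are known to act.
Ifitm1, chr7:140967826-140968125, plus strand: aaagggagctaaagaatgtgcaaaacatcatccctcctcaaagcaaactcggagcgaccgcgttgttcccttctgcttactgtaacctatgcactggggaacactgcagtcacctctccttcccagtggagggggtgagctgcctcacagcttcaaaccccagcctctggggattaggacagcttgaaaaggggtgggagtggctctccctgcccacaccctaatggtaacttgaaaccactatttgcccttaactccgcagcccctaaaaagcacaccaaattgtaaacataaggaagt
Ifitm2, chr7:140955912-140956211, minus strand: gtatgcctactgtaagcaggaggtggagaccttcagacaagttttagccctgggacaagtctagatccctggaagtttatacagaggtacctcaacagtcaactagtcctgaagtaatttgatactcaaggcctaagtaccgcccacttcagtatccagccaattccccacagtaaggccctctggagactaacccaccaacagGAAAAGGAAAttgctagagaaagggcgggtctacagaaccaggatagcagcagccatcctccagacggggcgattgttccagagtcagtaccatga
Ifitm3, chr7:141010695-141010994, minus strand: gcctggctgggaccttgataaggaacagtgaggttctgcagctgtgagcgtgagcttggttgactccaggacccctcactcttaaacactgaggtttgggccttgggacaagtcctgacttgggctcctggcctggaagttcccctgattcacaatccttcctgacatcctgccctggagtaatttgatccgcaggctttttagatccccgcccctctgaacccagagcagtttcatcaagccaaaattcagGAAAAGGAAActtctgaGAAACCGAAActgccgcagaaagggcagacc
Ifitm6, chr7:141016843-141017142, minus strand: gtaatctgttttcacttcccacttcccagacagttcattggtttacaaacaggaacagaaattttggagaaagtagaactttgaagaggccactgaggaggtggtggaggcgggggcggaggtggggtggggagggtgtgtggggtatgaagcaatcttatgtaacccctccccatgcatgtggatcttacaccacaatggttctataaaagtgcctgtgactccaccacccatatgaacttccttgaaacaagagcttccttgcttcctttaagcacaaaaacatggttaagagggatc

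The element core, searched on both strands, occurred in 3.43% of 32817 start regions of the same length in the mouse RefSeq table. Ifitm2 held it once, 46 bases before the start, and Ifitm3 held it at bases 3 and 20 counted from the start. It was not in the window of Ifitm1 or Ifitm6, nor in any of the windows of Ifitm10. The gamma-activated site TTCNNNGAA, a palindrome to which STAT dimers bind, occurred in 8.29% of all windows. It was in the Ifitm3 window at base 14, where it overlaps the second element core, and in that of Ifitm6 from 10 bases before the start. A kappa B site was found in 8.46% of all windows and, among the members, in Ifitm3 on the opposite strand from 116 bases before the start. These matches describe letters, and binding was not measured.

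In macrophages, Ifitm1 went from almost no reads in the controls to well over 100 normalized counts in every library of both other groups. Control libraries held 2, 1 and 1 reads of Ifitm1, which are 1.84, 0.903 and 0.845 normalized counts. The PMAC chylomicron libraries held 190.4, 324 and 258 normalized counts, and the PMAC SRBI knockdown libraries held 167, 202 and 161. Every library of these groups lay far above every control, and the highest was chylomicron replicate 2. Summed over libraries, 604 reads stood against 4, an RPM ratio of 200 with an exact 95% counting interval of 77.9 to 738 for chylomicron against control. For SRBI knockdown the sums were 622 and 4 reads, and the ratio was 142 with an interval of 55 to 521. Such intervals cover counting error only. The fitted log2 fold changes, 6.87 and 6.36 with a pseudocount of 1, depend on that pseudocount, and were 4.55 and 4.05 with a pseudocount of 10. Ifitm1 passed the filter on low values only through the groups in which it was high.

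Ifitm3, the best-studied antiviral member, was also higher in both macrophage groups than in controls. It held 7911, 8279 and 7287 normalized counts in PMAC control, 20871, 20755 and 18121 in PMAC chylomicron, and 14847, 14757 and 15363 in PMAC SRBI knockdown. The 3 groups did not overlap, with controls lowest, chylomicron highest and SRBI knockdown between them. The log2 fold change was 1.35 for chylomicron and 0.94 for SRBI knockdown against control, which are 2.54-fold and 1.92-fold.

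Ifitm2, the endosomal relative of Ifitm3, followed the same order in smaller steps. Its normalized counts were 3799, 3432 and 3414 in PMAC control, 5918, 5316 and 5366 in PMAC chylomicron, and 4216, 4159 and 4387 in PMAC SRBI knockdown. No library of one group lay within the range of another. The log2 fold changes against control were 0.64 and 0.26, 1.56-fold and 1.2-fold higher.

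Ifitm6 was the member that was lower than in the macrophage controls. Controls held 54.3, 58.7 and 35.5 normalized counts, PMAC chylomicron libraries 16.6, 2.83 and 17.4, and PMAC SRBI knockdown libraries 20.5, 17.6 and 22.5. Chylomicron replicate 2, with 2 reads, was far below its companions. The groups did not overlap. Summed reads were 30 for chylomicron and 166 for control, an RPM 4.17-fold lower (exact 95% counting interval 2.81 to 6.37). For SRBI knockdown the sum was 71 reads, 2.57-fold lower (1.93 to 3.44). The fitted log2 fold changes were -2.20 (95% interval -3.42 to -0.99) and -1.23 (-2.44 to -0.01). Unlike the counting intervals, these take in the spread between libraries, and the second nearly reached 0. The first was -1.46 without chylomicron replicate 2 and -1.48 with a pseudocount of 10.

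Ifitm10, the distant member, was scarce in macrophage controls, with 12.9, 7.23 and 5.91 normalized counts. It reached 31.7, 55.2 and 31.5 in PMAC chylomicron and 25.9, 39.2 and 32.3 in PMAC SRBI knockdown. All libraries of those groups exceeded all controls, and they overlapped each other. The log2 fold changes against control were 2.08 and 1.84. Summed reads were 91 for chylomicron and 29 for control, an RPM ratio of 4.16 (exact 95% counting interval 2.72 to 6.56). For SRBI knockdown the sum was 116 reads, a ratio of 3.64 (2.41 to 5.67). The control mean, 8.67 normalized counts, was under the minimum of 10, so Ifitm10 passed the filter on low values only through the other groups.

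**Figure D1:**
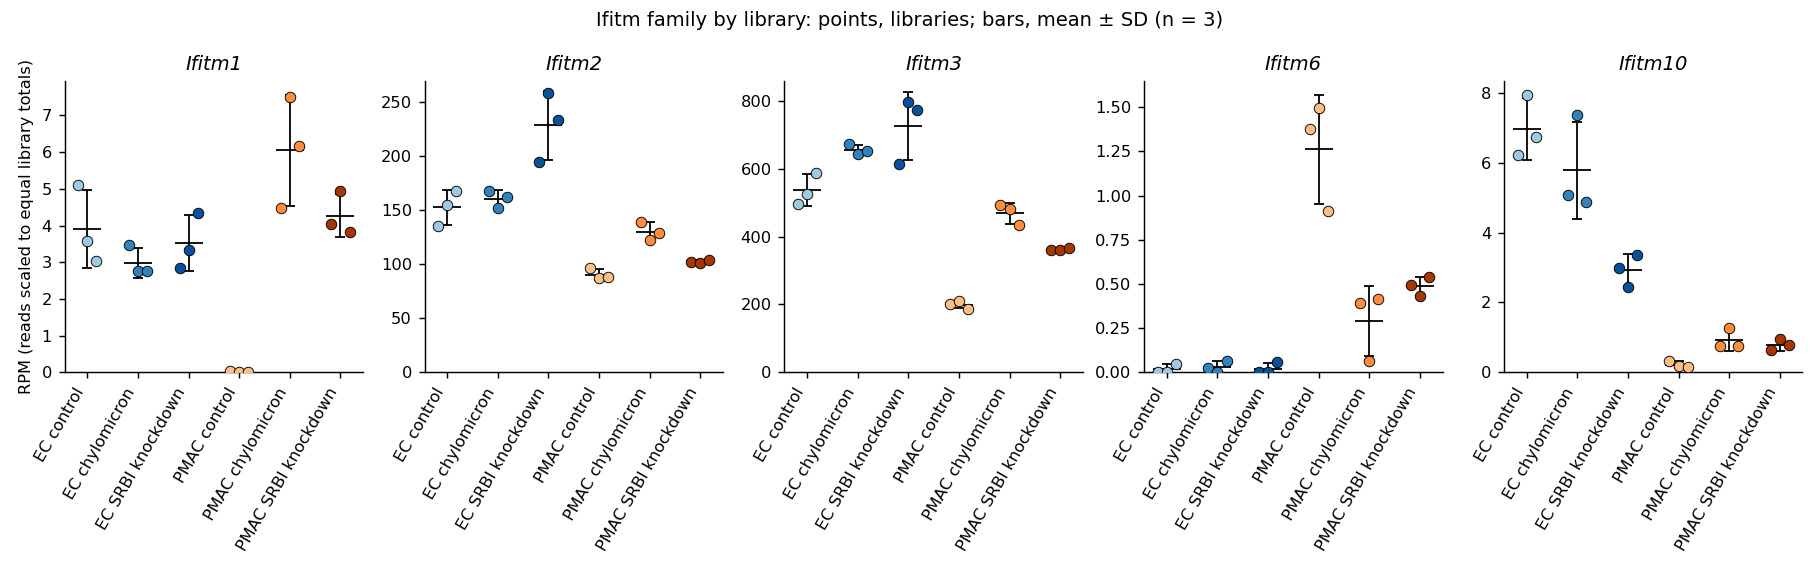
RPM (vertical axis, linear and different in each panel) of the 5 members in 18 libraries of 6 groups, where points are libraries and bars the mean ± SD (n = 3). Ifitm1 lies near 0 only in PMAC control, and Ifitm6 is highest there. Ifitm2 and Ifitm3 are higher in EC SRBI knockdown than in EC control, a difference that was not tested.

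All 5 members thus lay outside the control range in both macrophage contrasts. This contrast chose the family, so nothing is read from the count, beside which 42.5% of 13630 genes did not overlap between chylomicron and control and 47.5% between SRBI knockdown and control. In the fit over all genes 33.4% passed the threshold for chylomicron (2178 higher and 2372 lower) and 30.1% for SRBI knockdown (1998 higher and 2111 lower). The split depended on scaling, with 1307 higher and 3768 lower for chylomicron and 1372 and 3024 for SRBI knockdown when libraries were scaled to equal totals. That scaling put the median gene of chylomicron against control at -0.127 on the log2 scale, where Ifitm2 stood at 0.52 and Ifitm3 at 1.23. In bulk RNA, fewer cells of a type and less RNA per cell cannot be told apart.

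Some genes listed as markers of other leukocytes also differed between the macrophage groups. A list of 7 monocyte genes summed to 100 to 107 RPM in controls, 223 to 280 in chylomicron and 314 to 373 in SRBI knockdown libraries, led by the proteoglycan gene Vcan (74 ± 2.39, 233 ± 26.9 and 329 ± 30.2). The same list summed to 411 to 468 RPM in EC control, where Vcan was at 194 ± 25.5 and F13a1 at 235 ± 7.46. Its sum is thus not particular to leukocytes. Of the 6 monocyte genes tested with chylomicrons, 2 rose and 3 fell, and of the 6 tested with SRBI knockdown, 1 rose and 2 fell. For 4 neutrophil genes tested the counts were 3 risen with chylomicrons and 2 with SRBI knockdown, and for 9 macrophage genes 1 risen and 5 fallen, then 6 fallen. Over all genes 33.4% passed in either direction with chylomicrons, where 16% were higher, and 30.1% passed with SRBI knockdown. S100a8, among those counted as risen with chylomicrons, overlapped in RPM, at 65.1 to 74.1 there and 63.5 to 68.8 in control. The monocyte chemokine receptor gene Ccr2 was at 0.843 ± 0.194 RPM in controls and 0.169 ± 0.158 in chylomicron. A list of 12 neutrophil genes summed to 590 to 638, 630 to 657 and 1037 to 1150 RPM in controls, chylomicron and SRBI knockdown, with S100a9, Ly6g, Elane and Retnlg at 0 in every PMAC library. The higher sum with SRBI knockdown came mainly from Mmp8, at 356 ± 31.6, 291 ± 17 and 785 ± 69.3 RPM in that order. S100a8 was at 66.8 ± 2.91, 69.4 ± 4.5 and 70.4 ± 3.09, and Csf3r at 193 ± 9.98, 280 ± 13.1 and 223 ± 12.9. The 9 macrophage genes summed to 46723 to 49252 RPM in controls, 26822 to 28904 in chylomicron and 30979 to 34645 in SRBI knockdown libraries. Most of that sum was Lyz2, at 41036 ± 1109, 21888 ± 986 and 26723 ± 1790 RPM. In the same order, Csf1r was at 2036 ± 101, 1198 ± 49.2 and 1206 ± 37.4. Adgre1 was at 3424 ± 62.6, 3210 ± 133 and 3510 ± 64.9, and Cd68 at 1236 ± 15.5, 1273 ± 35.5 and 1043 ± 21. Less abundant genes of the list differed by more, with Timd4 at 305 ± 29.4, 34.8 ± 1.21 and 28.8 ± 2.05 and Mrc1 at 54.5 ± 6.18, 13 ± 3.44 and 14.5 ± 0.723. The part of these markers in the differences of the Ifitm genes was not tested.

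The macrophage groups labelled SRBI knockdown and chylomicron-treated could be tested against each other, although with libraries that also served in the contrasts behind the choice of the family. Ifitm2 and Ifitm3 were lower with SRBI knockdown, to 0.77 and 0.754 of their level, and the other members did not pass the test. The test was limma on log2 normalized counts plus 1, with Benjamini-Hochberg adjustment over all 13630 genes and a threshold of 0.05. Ifitm3 averaged 14989 ± 327 normalized counts (SD, n = 3) in SRBI knockdown and 19916 ± 1555 in chylomicron, a log2 fold change of -0.41 with a standard error of 0.06 (95% interval -0.53 to -0.28, limma adjusted p = 1.76e-04). For Ifitm2 the means were 4254 ± 119 and 5533 ± 334, and the log2 fold change was -0.38 with a standard error of 0.06 (95% interval -0.50 to -0.26, limma adjusted p = 3.20e-04). Both were lower in 3 of 3 knockdown libraries than in any chylomicron library. Over all genes 11.2% passed the threshold and 5.59% passed it in this direction. That total was 1525 genes, and it was 822 without PMAC SRBI knockdown replicate 1 and 937 without replicate 2, while the calls of Ifitm2 and Ifitm3 held in each of these fits. With equal library totals the 763 higher and 762 lower genes became 1028 and 581.

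Ifitm1 differed by -0.51 between the same groups, with a 95% interval of -1.22 to 0.20 (limma adjusted p = 0.376), and its libraries overlapped. The interval of Ifitm10 was -1.25 to 0.76 around -0.24 (limma adjusted p = 0.801). Ifitm6 was higher in 3 of 3 SRBI knockdown libraries than in any chylomicron library, as 27.3% of all genes were apart in either direction, but the log2 fold change, 0.98, missed the threshold (95% interval -0.24 to 2.19, limma adjusted p = 0.317). Without PMAC chylomicron replicate 2, the library with 2 reads, that value was 0.23.

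**Figure D2:**
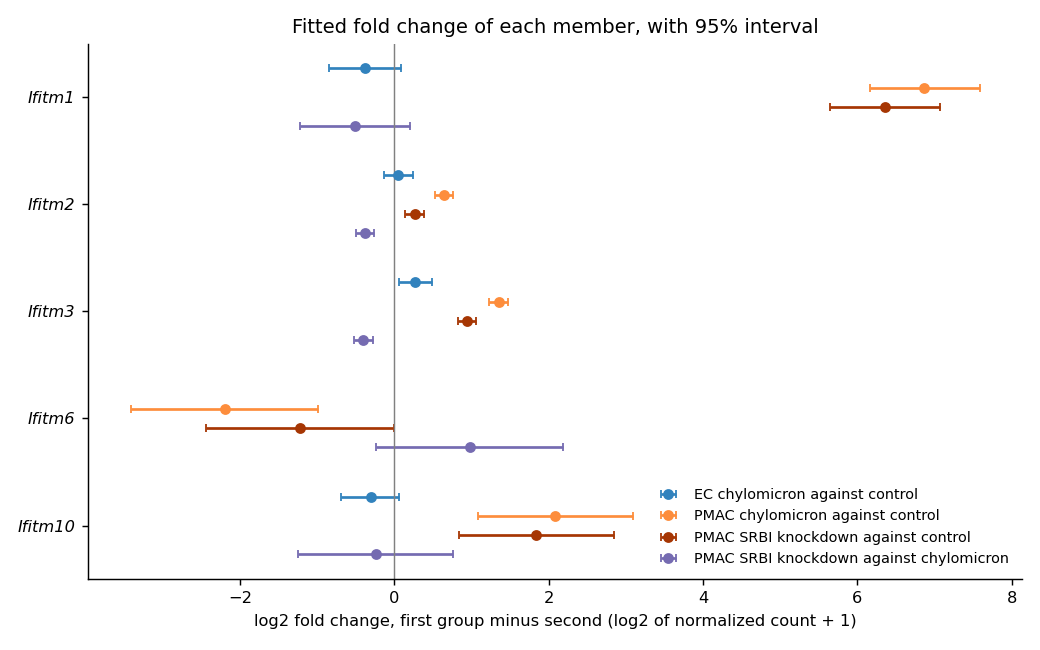
Fitted log2 fold change of each member (horizontal axis, on log2 of the normalized count plus 1) with its 95% interval, for the 4 comparisons within a table. The intervals of Ifitm2 and Ifitm3 are narrow and lie below 0 for SRBI knockdown against chylomicron, and those of Ifitm1, Ifitm6 and Ifitm10 cross 0 there. Ifitm6 has no value in EC, and the 2 contrasts against PMAC control are descriptions.

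Endothelial cells carried Ifitm1, Ifitm2, Ifitm3 and Ifitm10 in controls already, and none of these 4 passed the test with chylomicrons, where 8.45% of 15595 genes did. Ifitm3 held 21921, 22557 and 24992 normalized counts in EC control and 28915, 27560 and 27177 in EC chylomicron. Every chylomicron library exceeded every control, as in 24.7% of all genes in either direction. Its log2 fold change was 0.27 with a standard error of 0.10 (95% interval 0.06 to 0.48), an unadjusted p of 0.0149 by limma and an adjusted p of 0.12. The call turned with the method, the adjusted p being 0.00488 with DESeq2 on the recovered reads and 0.0431 with sample weights in limma, against 0.103 with edgeR and at most 0.395 over all alternatives. By edgeR 0 of the 4 passed, and by DESeq2 Ifitm3 was the one that did.

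Ifitm2 was at 6000, 6670 and 7142 normalized counts in EC control and 7231, 6500 and 6763 in EC chylomicron. These ranges overlapped, and the log2 fold change was 0.05 with an interval of -0.14 to 0.24 (limma adjusted p = 0.822). Ifitm1, at 225, 154 and 129 in controls and 149, 118 and 114 with chylomicrons, had a log2 fold change of -0.38 and an interval of -0.85 to 0.09 (limma adjusted p = 0.383). Ifitm10 was at 274, 342 and 287 in controls and 219, 315 and 203 with chylomicrons, a log2 fold change of -0.31 with an interval of -0.69 to 0.06 (limma adjusted p = 0.373). Chylomicron libraries overlapped controls for both. Of the 4, Ifitm3 alone had an unadjusted limma p under 0.05. Ifitm6 held 4 reads over the 3 EC chylomicron libraries and 2 over the controls, under the minimum for a test. Whether the chylomicron effect on a member differs between EC and PMAC was not tested.

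Set side by side as RPM, Ifitm2 and Ifitm3 shared their order over the 6 groups, and the other members each had another. Ifitm3 was highest in EC SRBI knockdown (727 ± 99.6 RPM, SD, n = 3) and EC chylomicron (656 ± 14.3), which overlapped. EC control followed at 536 ± 47, PMAC chylomicron at 469 ± 30.6, PMAC SRBI knockdown at 362 ± 3.48 and PMAC control at 199.8 ± 11.5, with no overlap between these neighbours. In the same order, Ifitm2 in EC SRBI knockdown was at 229 ± 32.1 RPM, EC chylomicron at 161 ± 8.22, EC control at 153 ± 16.2, PMAC chylomicron at 130.4 ± 8.46, PMAC SRBI knockdown at 103 ± 1.57 and PMAC control at 90.6 ± 5.2. EC control overlapped EC chylomicron above it and PMAC chylomicron below it.

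Ifitm1 ran from 6.05 ± 1.51 RPM in PMAC chylomicron over 4.27 ± 0.592 in PMAC SRBI knockdown, 3.91 ± 1.06 in EC control and 3.51 ± 0.763 in EC SRBI knockdown to 2.99 ± 0.408 in EC chylomicron. Each of these neighbours overlapped the next. PMAC control stood apart from all of them at 0.0305 ± 0.0141 RPM. Ifitm10 was highest in endothelial cells, with 6.96 ± 0.89 RPM in EC control and 5.78 ± 1.38 in EC chylomicron, which overlapped, and 2.93 ± 0.454 in EC SRBI knockdown. All PMAC groups were lower, at 0.927 ± 0.303 RPM in chylomicron, 0.784 ± 0.166 in SRBI knockdown, which overlapped it, and 0.221 ± 0.0933 in control. Ifitm6 was highest in macrophages, with 1.26 ± 0.307 RPM in PMAC control, 0.488 ± 0.0539 in PMAC SRBI knockdown and 0.291 ± 0.196 in PMAC chylomicron. In EC SRBI knockdown it held 1 read over 3 libraries, and the EC groups overlapped each other. The lowest PMAC chylomicron library, at 0.0655 RPM, lay within the range of EC chylomicron.

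EC SRBI knockdown could be set beside EC control only in this way and was not tested. Its libraries did not overlap those of EC control for Ifitm2, Ifitm3 and Ifitm10, nor for 62% of 15595 genes. Ifitm10 was 2.38-fold lower in knockdown. Ifitm2 was 1.5-fold and Ifitm3 1.36-fold higher in RPM, with log2 ratios of 0.58 and 0.44. The deposited normalized counts are on different scales, summing to 18474982 to 19097358 per EC SRBI knockdown library and 42506145 to 44190810 per EC control library. Without rescaling they gave -0.62 and -0.76. Ifitm1 and Ifitm10 moved down likewise, from -0.15 to -1.36 and from -1.25 to -2.45, so this reversal is one of scale. These libraries also differed in kind, with 5 mesothelial genes at 408 to 448 RPM in sum against 21 to 26.6 in the other EC libraries. Most of the higher sum was the keratin gene Krt19, at 360 ± 20.9 RPM in EC SRBI knockdown and 9.26 ± 0.455 in EC control. The other genes of that list were higher there too, such as Lrrn4 at 29.4 ± 2.59 and 5.21 ± 1.2. The knockdown cannot be told apart from whatever else differs between these libraries and the other EC libraries.

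In macrophages, most interferon response genes outside the family rose with chylomicrons, while more of them fell than rose with SRBI knockdown against control. The list holds 37 genes, such as sensors, transcription factors and antiviral effectors, and was written with earlier results of these data known. With chylomicrons 22 of 35 tested genes rose and 3 fell, with a median log2 fold change of 0.48 against -0.01 over all genes, of which 16% rose. Among those that rose were Zbp1, a sensor of Z-form nucleic acid (1.38, limma adjusted p = 3.61e-11), and Irf7, the master transcription factor of type I interferon (2989 ± 442 against 1049 ± 106 normalized counts, adjusted p = 2.31e-09). Oasl1 rose by 1.83 and Parp14 by 0.48. The 3 that fell, named after their values were seen, were Ly6e (-0.76), Ifit2 (-0.98) and Mx1, from 161 ± 6.15 to 82.5 ± 24.9 normalized counts. With SRBI knockdown 4 rose against control and 11 fell, with a median of -0.05 against 0.01 over all genes, of which 15.5% fell. Ch25h, the cholesterol 25-hydroxylase, rose by 2.34 and Zbp1 by 0.56, while Mx1, a dynamin-like antiviral GTPase, fell by 2.38 and Ly6e by 0.88. The number that rose was 7 with sample weights and in a fit of the 6 libraries alone.

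Between SRBI knockdown and chylomicron macrophages the list went mostly the way of Ifitm2 and Ifitm3. With SRBI knockdown 27 of 35 genes were lower than with chylomicrons and 1 was higher, with a median log2 fold change of -0.69 against 0.01 over all genes, of which 5.59% were lower. Irf7 fell from 2989 ± 442 to 1206 ± 102 normalized counts, a log2 fold change of -1.30 (limma adjusted p = 3.54e-07). Isg15, a ubiquitin-like modifier, was at -1.09, Zbp1 at -0.81 and the secreted glycoprotein gene Lgals3bp at -0.59. The single gene that rose was Ch25h, at 1.73. Without a trend in the empirical Bayes step 17 fell.

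**Figure D3:**
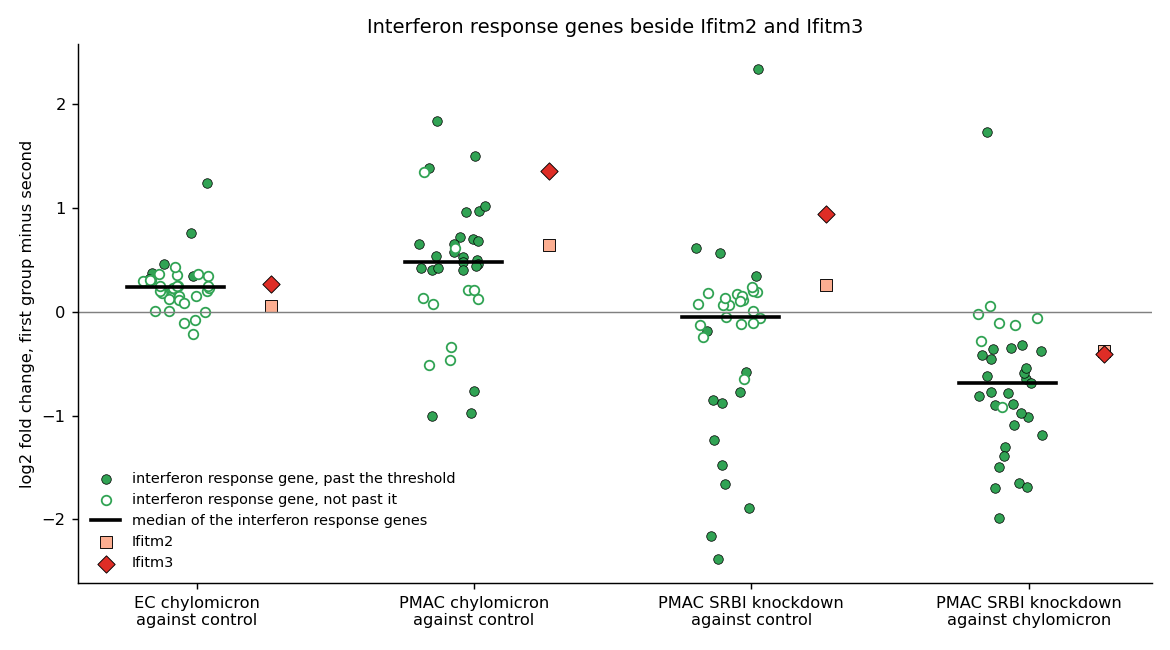
Log2 fold change (vertical axis) of interferon response genes outside the family in each comparison, filled where past the threshold, with their median as a bar, beside Ifitm2 (square) and Ifitm3 (diamond). For PMAC SRBI knockdown against control the median is -0.05 while Ifitm3 is at 0.94, and for SRBI knockdown against chylomicron most genes and both members lie below 0.

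In endothelial cells 6 of 36 interferon response genes rose with chylomicrons by limma and none fell there or by edgeR or DESeq2, with a median log2 fold change of 0.24 against -0.02 over all genes, of which 5.16% rose. Ch25h rose by 1.24 (limma adjusted p = 0.00285), Ifit2 by 0.46, Parp14 by 0.37 and Ifih1, which encodes the double-stranded RNA sensor MDA5, by 0.34. This count moved with single libraries. It was 13 without EC chylomicron replicate 2, 3 without EC control replicate 3, likewise 3 when chylomicron replicate 1 was left out, 2 without EC control replicate 2 and 1 without EC control replicate 1. It was 15 with sample weights and 1 without a trend.

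Ligands, receptors and signal transducers of interferon and of the gp130 cytokines, which also act through STAT proteins, more often rose than fell against control in macrophages. Of 25 genes listed, 21 were tested in PMAC and 20 in EC. The interferon genes of the list, Ifnb1, Ifna2, Ifna4 and Ifng, were under the minimum for a test in both. The ligand genes tested were thus those of gp130 cytokines only. With chylomicrons 11 of 21 rose and 2 fell, and with SRBI knockdown 11 rose and 4 fell, with medians of 0.21 and 0.17. Over all genes 33.4% passed in either direction with chylomicrons and 30.1% with SRBI knockdown. Il6 averaged 352 ± 100 normalized counts in control, 35463 ± 1697 in chylomicron and 25100 ± 1117 in SRBI knockdown. Osm, the gene of the gp130 cytokine oncostatin M, rose by 2.27 and 2.16 on the log2 scale, and the feedback inhibitor genes Socs1 (3.32 and 3.37) and Socs3 (1.45 and 1.51) also rose. Between SRBI knockdown and chylomicron 3 of 21 fell, namely Irf1 (-0.33), the interferon receptor gene Ifnar2 (-0.24) and Il6 (-0.50), where 11.2% of all genes passed. In endothelial cells 7 of 20 rose, where 5.16% of all genes did, among them the oncostatin receptor gene Osmr (0.91), the kinase gene Jak2 (0.60), Il6ra (0.93) and Irf1 (0.47).

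Genes whose products are known to modify or bind IFITM proteins went in both directions. Of 13 tested, 1 rose and 5 fell in PMAC chylomicron against control, 3 rose and 5 fell in PMAC SRBI knockdown against control, and 1 fell in EC. Over all genes the shares past the threshold were 33.4%, 30.1% and 8.45%, so the single gene in EC is near the background. Cav1, the gene of caveolin 1, rose by 1.22 with chylomicrons and 0.88 with SRBI knockdown. Nedd4, a ubiquitin ligase that acts on IFITM3, fell by 0.86 and 0.78, and Setd7, a methyltransferase that acts on it, fell by 0.54 and 0.40. The palmitoyltransferase gene Zdhhc20 was 0.40 higher on the log2 scale with SRBI knockdown than with chylomicrons (limma adjusted p = 8.16e-05), against 0.23 above control with SRBI knockdown and -0.16 with chylomicrons. The member that fell in EC was Abhd16a (-0.28, limma adjusted p = 0.0465), a depalmitoylase. Of genes of other proteins with the CD225 domain of the family, 1 was tested in PMAC and 3 in EC. Prrt1 fell in PMAC chylomicron (-1.23) and SRBI knockdown (-1.48), and Prrt2 fell in EC (-0.87).

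Most of the nearest genes on the chromosome were read too rarely to be tested. Pgghg, the closest protein-coding neighbour before the cluster, averaged 14.9 ± 0.738 RPM in PMAC control, 14.3 ± 2.5 in PMAC chylomicron and 15.8 ± 0.86 in PMAC SRBI knockdown. Its limma adjusted p lay between 0.298 and 0.788 over the 4 comparisons. Nlrp6 and BC024386 before the cluster and B4galnt4 and Pkp3 after it had means under 1 RPM in every group. Sigirr, an inhibitory receptor of the interleukin-1 family, was at 4.53 ± 0.406 RPM in EC control and 3.62 ± 0.366 in EC chylomicron (log2 fold change -0.35, limma adjusted p = 0.254). Next to Ifitm10, the lysosomal protease gene Ctsd differed from control by -0.06 with chylomicrons (limma adjusted p = 0.41) and by -0.15 with SRBI knockdown (limma adjusted p = 0.0496). Syt8, a synaptotagmin gene further on, had log2 fold changes of -2.28 and -2.49 in the same contrasts (limma adjusted p = 2.46e-05 and 1.09e-05). Inside the cluster, Ifitm5 held 27 to 40 reads per PMAC group. Ifitm7, which the annotation places on another chromosome, held 10 reads in PMAC control, 26 in chylomicron and 36 in SRBI knockdown.

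Across the 9 PMAC libraries, which fall into 3 groups and share a table, the genes most like each member were sought by Pearson's r on log2 normalized counts plus 1. Ifitm1 was most like Ier3 (0.9976), an early response gene, Il6 (0.9972), the adenosine receptor gene Adora2b (0.9971) and the vanin gene Vnn3 (0.9970). In all, 692 of 9858 genes exceeded an r of 0.9 with it. Ifitm3 was most like the class II histocompatibility gene H2-Ab1 (0.9932), the syndecan gene Sdc4 (0.9922), Pon3 (0.9921) and the disulfide isomerase gene Pdia4 (0.9917), with 618 genes over 0.9. Ifitm2 was most like Snap23 (0.9905), a membrane fusion gene, Zbp1 (0.9852), the peptidoglycan sensor gene Nod2 (0.9846) and the invariant chain gene Cd74 (0.9833), with 300 genes over 0.9. H2-Ab1 averaged 3944 normalized counts in control, 19611 in chylomicron and 12350 in SRBI knockdown, and Cd74 averaged 3543, 7421 and 4295. Ifitm10 was most like Nup50 (0.9881), Tmed3 (0.9826), Blcap (0.9802) and Dnajb6 (0.9788). Ifitm6 was most like Aplf (0.9786), Wwp1 (0.9765), Tada2a (0.9645) and the thrombomodulin gene Thbd (0.9602), with 54 genes over 0.9. PMAC chylomicron replicate 2, with 2 reads of Ifitm6, was the lowest library for Ifitm6 and for each of these 4 genes. How far the values of r rest on that library was not tested. By Spearman's rho 0 of the 4 genes of any member were again among its 4 most like. Between members, r was 0.96 for Ifitm1 with Ifitm3 and with Ifitm10, 0.93 for Ifitm2 with Ifitm3, and -0.72 to -0.82 for Ifitm6 with each of the others.

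**Figure D4:**
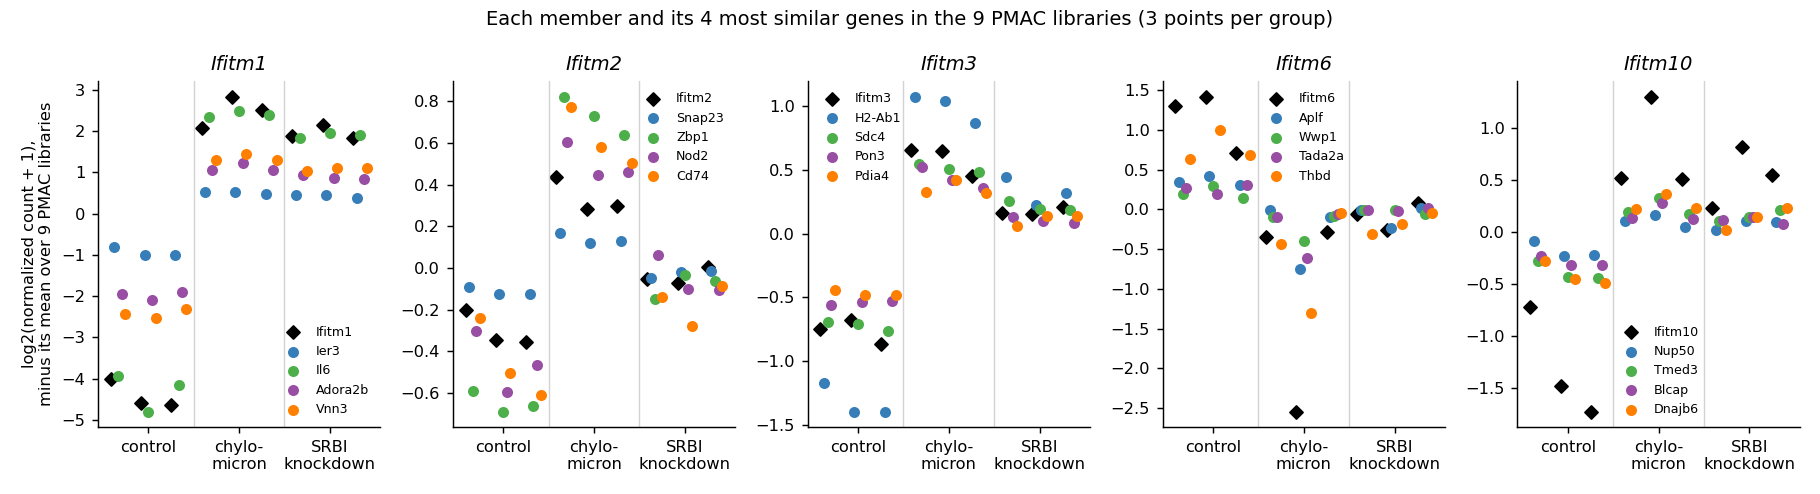
Log2 of the normalized count plus 1, minus its mean over the 9 PMAC libraries (vertical axis), for each member (black diamonds) and its 4 most similar genes (coloured points), with 3 libraries per group along the horizontal axis. Ifitm1 and Il6 span about the same range, and Ifitm6 is lowest in chylomicron replicate 2.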

How the data were processed

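Polyadenylated RNA of 18 libraries in 6 groups was analysed, and the 9 media libraries of small RNA were not used. Per the labels, libraries were made with a stranded mRNA kit. The submitters' processing notes name bcl2fastq, STAR 2.7.3a, featureCounts, Subread 1.6.3, mm10 and GRCm38, with no role for each. Whether counting used strand is not given in the sources used here. The deposited values of the 3 tables are a signal, normalized counts. Multiplied by a factor per library, each nonzero value gives whole reads within 0.01, so the authors' reads could be recovered.

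Within a table, log2(normalized count + 1) was the response in limma 3.58.1 (R 4.3.3), with a group term and an empirical Bayes trend. Genes needed a mean of 10. Tests were two-sided, with a Benjamini-Hochberg adjusted p threshold of 0.05 over all genes. The EC fit used 6 libraries and the PMAC fit 9. EC SRBI knockdown, in a table without controls, was set beside the rest in RPM and not tested. Ratios of summed reads carry exact 95% intervals of counting error. Alternatives included edgeR 4.0.16 and DESeq2 1.42.0 on recovered reads, other scalings, pseudocounts and single libraries left out. The fits were tested on simulated data, where a log2 change of 1 was called in 90% to 95% of 100 changed genes per comparison. That simulation gave all genes the same spread and changed few of them, unlike the macrophage contrasts, so it does not measure error there. Among 18 replicate pairs 0 were identical.

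The members and gene lists were chosen with earlier results of these data known. The named genes were the members, the 4 most like genes of each (mean of at least 100, Pearson's r), up to 4 members past the threshold per list and comparison by smallest p, and 3 neighbours on each side. Others, markers among them, were named after their values were seen.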

Additional observations from a re-analysis of the deposited data

How the results depend on the processing

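Among macrophages, Ifitm2 and Ifitm3 stayed lower with SRBI knockdown than with chylomicrons and past the threshold in each of 17 alternatives, with adjusted p up to 0.0289 and 0.0328 and log2 fold changes from -0.41 to -0.33 and from -0.47 to -0.36. For Ifitm1, Ifitm6 and Ifitm10 in that comparison, and for Ifitm1, Ifitm2 and Ifitm10 in EC, no alternative gave a call. Ifitm3 in EC passed with sample weights (0.29) and with DESeq2 (0.27). Against PMAC control, pseudocounts of 0.5 and 10 put Ifitm1 at 7.26 and 4.55 with chylomicrons and 6.75 and 4.05 with SRBI knockdown, edgeR at 7.62 and 7.08, and DESeq2 at 7.76 and 7.22, while a pseudocount of 10 put Ifitm10 at 1.39 and 1.19. The shifts with the pseudocount follow from adding it to few reads. Equal library totals put Ifitm2 at 0.52 and 0.18 and Ifitm3 with chylomicrons at 1.23. Counts of genes past the threshold fell without a trend to 587 in EC and 602 for SRBI knockdown against chylomicron, and leaving out a library gave 744 to 1549 and 822 to 1798. Interferon response genes that rose in EC numbered 1 without a trend, 15 with sample weights and 1 to 13 with a library left out, and in PMAC SRBI knockdown against control 7 with sample weights or the 6 libraries alone. Those lower with SRBI knockdown than chylomicrons numbered 17 without a trend. The cause of these shifts was not tested. Deposited normalized counts in place of RPM put EC SRBI knockdown beside EC control at -0.62 for Ifitm2 and -0.76 for Ifitm3, the reverse of 0.58 and 0.44. The normalized counts of these groups have different totals per library, so that reversal follows from scale. Correlations of same-number libraries, after subtracting group means, ran from -0.16 to 0.17 in EC and -0.1 to 0.07 in PMAC. Different-number pairs ran from -0.4 to 0.32 and from -0.04 to 0.11. With 3 libraries per group, these values cannot settle whether replicate numbers mark pairs. A replicate block in limma changed no call of a member (Ifitm3 in EC 0.27, limma adjusted p = 0.0895, and with SRBI knockdown against chylomicron -0.41, limma adjusted p = 3.94e-04). With that block, EC calls went from 1317 to 1581 genes and from 6 to 8 interferon response genes. Levels per transcript length were not run, since no exon lengths were used here. Depth limits Ifitm6, with 2 to 65 reads per PMAC library, Ifitm1, with 1 or 2 in each PMAC control library, and Ifitm10, with 7 to 14 in each PMAC control library.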
